A study of Mus musculus with 6 samples.

Results

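The epidermal growth factor (EGF) receptor family was examined in colon epithelial cells of mice given azoxymethane (AOM) and dextran sulfate sodium (DSS), through 10 genes chosen by name, of the 52550 genes listed in each sample. They were the receptors *Egfr*, *Erbb2* and *Erbb3*, the ligands *Areg*, *Ereg*, *Hbegf*, *Tgfa*, *Btc* and *Epgn*, and the feedback inhibitor *Errfi1*. No cut on expression values was used to choose them, but earlier results of these data were known. All 10 had a row in all 6 samples, and 9 of them reached the level required for testing.

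The samples were 3 of Zfp90fl/fl mice and 3 of Zfp90deltaIEC mice, all male C57BL/6 mice, given in the labels as 6 to 8 weeks old (an age from before the treatment ended), that carried floxed *Zfp90* alleles, with deletion in the Zfp90deltaIEC mice by Cre under the *Villin* promoter, which is active in the intestinal epithelium. *Zfp90* encodes a zinc finger protein. Every mouse had received AOM (10 mg/kg), a colon carcinogen, and after 5 days the first of 3 cycles of DSS (2% in the drinking water), a compound that injures the colon, each of 7 days and followed by 14 days of water, until day 80. Epithelial cells were released from the colon with a chelating agent. Gene levels were read as FPKM, fragments per kilobase of transcript and per M mapped fragments, a unit that was inferred. The labels name other Zfp genes as the deleted gene for replicates 2 and 3 of the Zfp90deltaIEC group, which were grouped by their titles, and the paper's methods give a higher DSS concentration than the labels. The genotypes were littermates kept in separate cages after weaning, so an effect of cage cannot be told apart from one of genotype. There was no untreated group.

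*Zfp90* was measured at 0.63, 0.49 and 0.569 FPKM in the 3 Zfp90fl/fl samples against 0.0846, 0.195 and 0.166 FPKM in the 3 Zfp90deltaIEC samples, without overlap, with a ratio of the means of 0.264. On the log2(FPKM + 1) scale it differed by -0.44 with a standard error of 0.0565 (limma without a filter on low values, adjusted p = 0.123), so that the deleted gene itself did not pass the threshold of an adjusted p under 0.05. Epithelial markers were high in every sample, with *Epcam* between 553.5 and 608.5 FPKM and *Cdh1* between 244.4 and 261.8 FPKM. The number of sequenced fragments is not stated in the files and was estimated at 26.2 to 28.8 M per sample from the spacing of low values.

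Ligands of this family are made as membrane-bound precursors and are released by metalloproteases such as ADAM17 and ADAM10. EGFR binds all 6 ligands studied here, whereas ERBB2 has no known ligand and acts as a partner in dimers, and ERBB3 has a weak kinase, binds neuregulins and recruits PI3K. In the colon the pathway is known for its part in epithelial renewal and repair after injury, and ERRFI1, also called MIG6, is induced by the pathway and binds the receptor kinase domain to inhibit it.

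*Epgn*, *Ereg*, *Areg* and *Btc* lie beside each other on mouse chromosome 5, within 375.5 kb that hold 4 protein-coding genes among 7 annotated genes (all gene positions are on GRCm38). Promoter windows of 300 bases, 250 before and 50 after the start, were taken from RefSeq (GRCm38.p6) for 7 of the 10 genes, 8 windows in all, and none was used for *Ereg*, *Erbb3* and *Hbegf*. They are shown for 3 cluster genes, since neighbouring ligands differed widely in level, and for the second of the 2 starts of *Errfi1*, which shares motifs with *Areg*. The *Areg* window is chr5:91139349-91139648 on the plus strand, the *Epgn* window chr5:91027267-91027566 on the plus strand, the *Btc* window chr5:91402945-91403244 on the minus strand and the *Errfi1* window chr4:150854820-150855119 on the plus strand. Each is printed 5′ to 3′ on the gene's strand, and capitals mark matches to the motifs described after them.
Areg: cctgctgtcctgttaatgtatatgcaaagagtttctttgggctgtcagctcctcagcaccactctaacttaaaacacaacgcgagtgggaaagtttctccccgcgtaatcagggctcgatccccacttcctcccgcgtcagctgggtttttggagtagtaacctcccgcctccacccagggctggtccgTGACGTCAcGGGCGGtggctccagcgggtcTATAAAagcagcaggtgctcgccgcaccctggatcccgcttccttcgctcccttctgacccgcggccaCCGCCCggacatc
Epgn: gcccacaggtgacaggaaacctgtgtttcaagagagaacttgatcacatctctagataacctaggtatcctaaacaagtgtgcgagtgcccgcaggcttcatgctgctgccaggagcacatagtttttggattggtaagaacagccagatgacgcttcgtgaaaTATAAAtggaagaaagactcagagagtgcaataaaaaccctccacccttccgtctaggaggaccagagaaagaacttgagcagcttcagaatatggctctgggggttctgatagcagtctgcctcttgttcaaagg
Btc: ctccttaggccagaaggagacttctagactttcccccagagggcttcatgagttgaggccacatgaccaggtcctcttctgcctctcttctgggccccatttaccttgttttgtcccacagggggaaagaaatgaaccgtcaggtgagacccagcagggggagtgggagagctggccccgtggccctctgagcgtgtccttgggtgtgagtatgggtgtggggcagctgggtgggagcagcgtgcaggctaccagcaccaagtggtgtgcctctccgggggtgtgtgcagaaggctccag
Errfi1: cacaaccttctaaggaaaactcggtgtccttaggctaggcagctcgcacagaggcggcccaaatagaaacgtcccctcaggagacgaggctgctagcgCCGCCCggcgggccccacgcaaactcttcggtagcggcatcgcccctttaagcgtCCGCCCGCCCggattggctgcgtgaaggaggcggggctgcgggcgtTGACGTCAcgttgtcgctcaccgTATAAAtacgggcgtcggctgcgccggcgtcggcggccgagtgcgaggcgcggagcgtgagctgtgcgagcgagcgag

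The motifs searched were the cAMP response element TGACGTCA, the AP-1 site TGANTCA and the GC box GGGCGG on both strands, and the TATA box TATAAA on the gene's strand only. *Areg* held TGACGTCA 61 bases before its start and TATAAA 31 bases before it. *Errfi1* held TGACGTCA 51 bases before its second start and TATAAA 28 bases before it. Those were the 2 of 8 windows with TGACGTCA, which 1.79% of 32851 windows of the same length contained. TATAAA, found in 8.32% of all windows, also lay 86 bases before the RefSeq start of *Epgn*, and the *Btc* window held none of the motifs searched. The gene annotation used for positions starts *Epgn* upstream of that RefSeq start, at chr5:91027464. The match also lies before this annotated start, but nearer to it, so its distance depends on the start used. GC boxes, present in 35.7% of all windows, were found in *Areg* (2 matches) and in this *Errfi1* window (3 matches, of which 2 overlap) and also in the windows of *Egfr* and *Tgfa*, and TGANTCA, found in 7.81% of all windows, lay in none of the 8. A match is a run of letters and was not tested as a binding site.

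None of the 10 genes was called as different between the genotypes. After adjustment over all 11564 genes tested, limma called 0 of the 9 tested members, 0 of 9 had an unadjusted p under 0.05, and in 0 of 9 were the 3 samples of the genotypes free of overlap. Over all genes tested, 0.199% were called, 14.6% had an unadjusted p under 0.05 and 21.3% had samples that did not overlap. The log2 fold change (Zfp90deltaIEC minus Zfp90fl/fl, on log2(FPKM + 1)) was below 0 for 7 members and above 0 for 2, with a median of -0.04, and the median over all genes tested was -0.02. The members' adjusted p ranged from 0.534 to 0.982. In cells taken in bulk, fewer expressing cells and less RNA per cell cannot be told apart.

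**Figure D1:**
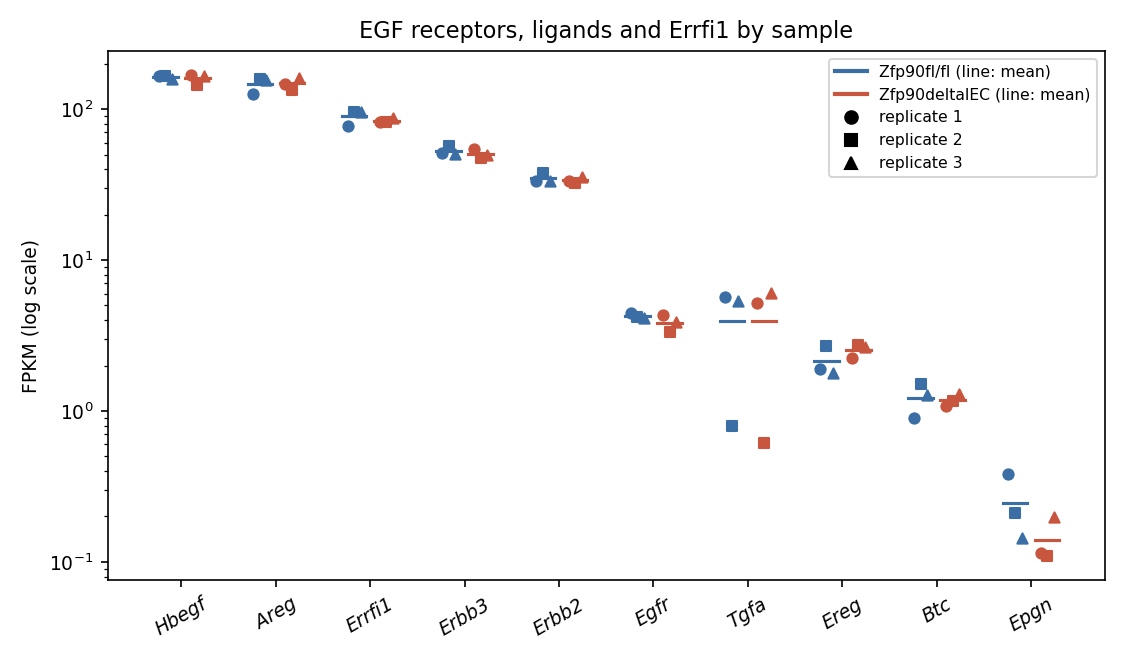
FPKM on a log axis of each of the 10 genes in the 3 Zfp90fl/fl and the 3 Zfp90deltaIEC samples, 1 point per sample. *Hbegf* and *Areg* lie between 125.9 and 168.7 FPKM and *Epgn* between 0.109 and 0.381 FPKM, the genotypes overlap for all 10, and both samples numbered 2 stand low for *Tgfa*.

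Levels per transcript length spread widely over the family. *Hbegf* had the highest mean over the 6 samples, 161.2 FPKM, and ranked 230 among all genes listed, followed by *Areg* at 147.2 FPKM (rank 253). *Errfi1* (86.8 FPKM), *Erbb3* (51.6 FPKM) and *Erbb2* (34.3 FPKM) came next. *Egfr* (4.05 FPKM), *Tgfa* (3.94 FPKM), *Ereg* (2.34 FPKM), *Btc* (1.2 FPKM) and *Epgn* (0.193 FPKM) formed the lower end. Neighbours in this order had overlapping sample ranges for *Hbegf* and *Areg*, for *Egfr* and *Tgfa*, and for *Tgfa* and *Ereg*, and separate ranges elsewhere. *Hbegf* exceeded *Areg* within 6 of 6 samples, by a ratio of 1.01 to 1.32.

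Among the receptors, *Egfr* (chr11:16752203-16918158) binds the ligands measured and was the least abundant. It was measured at 4.45, 4.17 and 4.13 FPKM in replicates 1, 2 and 3 of Zfp90fl/fl mice, against 4.31, 3.36 and 3.87 FPKM in those of Zfp90deltaIEC mice. The genotypes overlapped through Zfp90deltaIEC replicate 1, and the lowest value was that of Zfp90deltaIEC replicate 2. The means were 4.25 ± 0.173 and 3.85 ± 0.472 FPKM (SD, n = 3 each), with a log2 fold change of -0.12 (95% interval -0.32 to 0.08, adjusted p = 0.565, limma). The interval allows a level of FPKM + 1 between 19.8% lower and 5.7% higher in Zfp90deltaIEC mice.

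*Erbb2* (chr11:98412470-98437716), the partner receptor without a ligand of its own, was measured at 33.5, 37.7 and 33.6 FPKM in the Zfp90fl/fl samples against 33.4, 32.4 and 35.4 FPKM in the Zfp90deltaIEC samples. The ranges overlapped, and the log2 fold change was -0.05 (95% interval -0.21 to 0.11, adjusted p = 0.784, limma). *Mien1*, at 54.0 to 63.1 FPKM, overlaps *Erbb2* on the opposite strand, and the strand setting used in counting is not given in the sources used here.

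*Erbb3* (chr10:128567523-128589652), which couples to PI3K, was the most abundant receptor. Its values were 50.8, 57.2 and 50.5 FPKM in the Zfp90fl/fl samples and 54.4, 47.2 and 49.5 FPKM in the Zfp90deltaIEC samples. Both the highest sample, Zfp90fl/fl replicate 2, and the lowest, Zfp90deltaIEC replicate 2, carried the number 2. The log2 fold change was -0.07 (95% interval -0.25 to 0.12, adjusted p = 0.738, limma).

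The proportions among the receptors were narrow. *Erbb3* was 11.4 to 14.0 times and *Erbb2* 7.53 to 9.63 times as high as *Egfr* within a sample, and *Erbb3* exceeded *Erbb2* by 1.4 to 1.63 times. Of the summed receptor level, 83.0 to 99.1 FPKM, *Erbb3* made up 55.8% to 59.1%, *Erbb2* 36.2% to 39.9% and *Egfr* 4.06% to 5.02%. The sum was 92.0 ± 6.12 FPKM in Zfp90fl/fl and 87.9 ± 4.61 FPKM in Zfp90deltaIEC mice (SD, n = 3 each), a difference within the spread between samples.

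*Areg* (chr5:91139599-91148432) encodes amphiregulin, a ligand of EGFR. It was measured at 125.9, 157.8 and 155.3 FPKM in replicates 1, 2 and 3 of Zfp90fl/fl mice, against 147.6, 134.8 and 161.8 FPKM in those of Zfp90deltaIEC mice. The lowest and the highest of the 6 samples came from different genotypes, with all others between them. The means were 146.3 ± 17.7 and 148.1 ± 13.5 FPKM (SD, n = 3 each). The log2 fold change was 0.02 (SE 0.108, adjusted p = 0.943, limma), and its 95% interval, -0.24 to 0.28, allows between 15% lower and 21.1% higher. With a single transcript of 1215 nt, *Areg* rested on an estimated 4008 to 5622 fragments per sample.

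*Hbegf* (chr18:36504927-36515805) encodes heparin-binding EGF-like growth factor. Its values were 165.8, 164.5 and 157.6 FPKM in the Zfp90fl/fl samples and 168.7, 145.5 and 165.2 FPKM in the Zfp90deltaIEC samples, with Zfp90deltaIEC replicate 2 below the rest and the other 5 between 157.6 and 168.7 FPKM. The log2 fold change was -0.03 (95% interval -0.19 to 0.14, adjusted p = 0.888, limma). It was, after *Erbb2*, the steadiest member, with a within-group SD of 0.0857 on the log2 scale, where the median gene had 0.1.

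*Ereg* (chr5:91074622-91093646) encodes epiregulin and lies next to *Areg*, but at a far lower level. It was measured at 1.89, 2.71 and 1.79 FPKM in replicates 1, 2 and 3 of Zfp90fl/fl mice, against 2.26, 2.73 and 2.65 FPKM in those of Zfp90deltaIEC mice. Zfp90fl/fl replicate 2 lay among the Zfp90deltaIEC samples, and the other Zfp90fl/fl samples lay below all of them. The means were 2.13 ± 0.504 and 2.54 ± 0.252 FPKM (SD, n = 3 each). *Ereg* had the smallest p of the 9 tested members, with a log2 fold change of 0.19 (95% interval -0.10 to 0.48, adjusted p = 0.534, limma), and leaving out single samples moved it between 0.11 (without Zfp90fl/fl replicate 3, adjusted p = 0.777, limma) and 0.32 (without Zfp90fl/fl replicate 2, adjusted p = 0.309, limma). *Ereg* rested on an estimated 205 to 320 fragments per sample. The profiles nearest to it over the 6 samples, by Euclidean distance of mean-centred log2(FPKM + 1), were those of *Rtl8a* (0.091), *Nyap1* (0.106), *Edf1* (0.119), *1700096K18Rik* (0.139) and *Mkrn1* (0.149).

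*Tgfa* (chr6:86195223-86275719), which encodes transforming growth factor alpha, varied most. It was measured at 5.69, 0.792 and 5.36 FPKM in replicates 1, 2 and 3 of Zfp90fl/fl mice, against 5.16, 0.615 and 6.01 FPKM in those of Zfp90deltaIEC mice. In both genotypes the sample numbered 2 was low, and the lowest of the other 4 samples was 6.51 times the higher of that pair. The log2 fold change was -0.04 with a 95% interval of -1.70 to 1.62 (adjusted p = 0.982, limma), the least precise of the members. Without both samples numbered 2, a choice made after seeing the values, the means were 5.53 and 5.59 FPKM (n = 2 each) and the log2 fold change was 0.01 (95% interval -0.24 to 0.26, adjusted p = 0.979, limma).

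The within-group SD of *Tgfa*, 1.13 on the log2 scale, was larger than that of 99.9% of the genes tested. Among 11564 genes, 2 (*Tgfa* and *Trappc9*) had both samples numbered 2 more than 3-fold below the lowest of the other 4 samples. The same pattern was found for 3 genes with the samples numbered 1 and for 2 genes with those numbered 3. *Tgfa* has 4 annotated transcripts of 410 to 4527 nt. The cause of the low values was not tested.

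*Btc* (chr5:91357261-91402994) encodes betacellulin. Its values were 0.892, 1.5 and 1.28 FPKM in the Zfp90fl/fl samples and 1.08, 1.16 and 1.3 FPKM in the Zfp90deltaIEC samples. All 3 Zfp90deltaIEC values lay within the Zfp90fl/fl range, with a log2 fold change of -0.02 (95% interval -0.30 to 0.25, adjusted p = 0.942, limma).

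*Epgn* (chr5:91027464-91035215) encodes epigen and was the member under the filter. It was measured at 0.381, 0.212 and 0.143 FPKM in the Zfp90fl/fl samples against 0.114, 0.109 and 0.198 FPKM in the Zfp90deltaIEC samples. The ranges overlapped, and without the filter the log2 fold change was -0.12 (SE 0.0765, adjusted p = 0.679, limma). With a pseudocount of 0.1 in place of 1 it was -0.48 (adjusted p = 0.695, limma), and the ratio of the mean FPKM was 0.572. Depending on which of its transcripts was read, it rested on an estimated 2.48 to 17.6 fragments per sample, too few to read a small change.

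**Figure D2:**
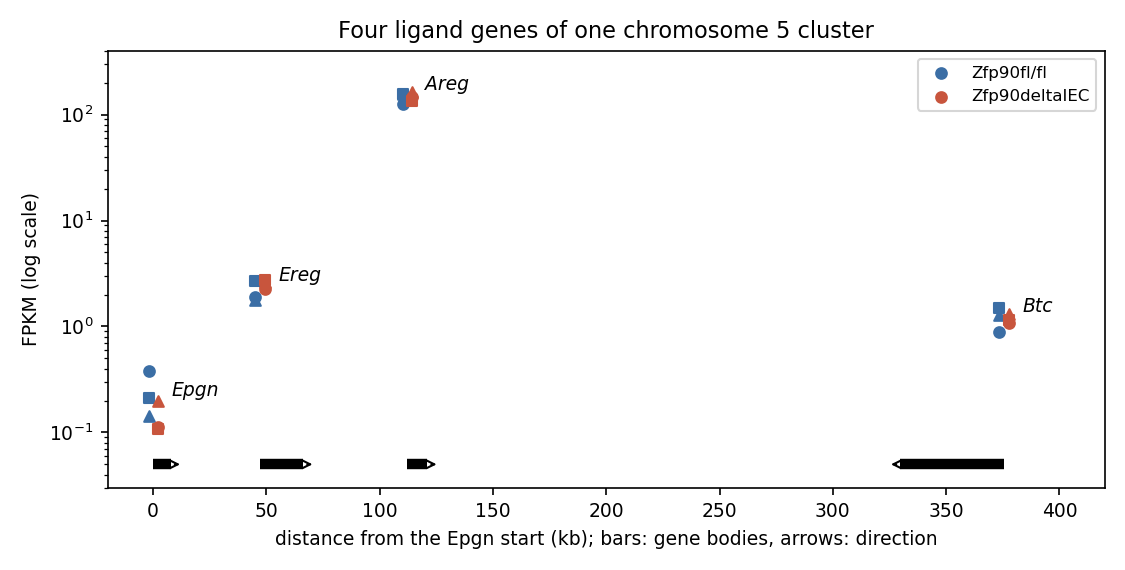
FPKM on a log axis of *Epgn*, *Ereg*, *Areg* and *Btc*, plotted against the distance in kb from the *Epgn* start, with 1 point per sample and marker shapes for the replicate numbers. *Areg*, at 125.9 to 161.8 FPKM, stands above its neighbours, which range from 0.109 to 2.73 FPKM, in all 6 samples.

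Within each sample *Areg* was 49.4 to 86.7 times as high as *Ereg*, 104.8 to 141.2 times as high as *Btc* and 331 to 1298 times as high as *Epgn*. The summed level of the 6 ligands was 316.5 ± 14.1 FPKM in Zfp90fl/fl and 315.7 ± 27.3 FPKM in Zfp90deltaIEC mice (SD, n = 3 each). *Areg* and *Hbegf* together made up 97% to 98.4% of it in every sample.

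The share of *Areg* was 41.9%, 48.2% and 48.3% in Zfp90fl/fl replicates 1, 2 and 3 and 45.4%, 47.3% and 48.0% in Zfp90deltaIEC replicates 1, 2 and 3. All 3 Zfp90deltaIEC values fell within the Zfp90fl/fl range. *Hbegf* held 49.0% to 55.2%, *Tgfa* 0.216% to 1.89%, *Ereg* 0.557% to 0.957%, *Btc* 0.297% to 0.459% and *Epgn* 0.035% to 0.127%. Composition is described and was not tested.

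**Figure D3:**
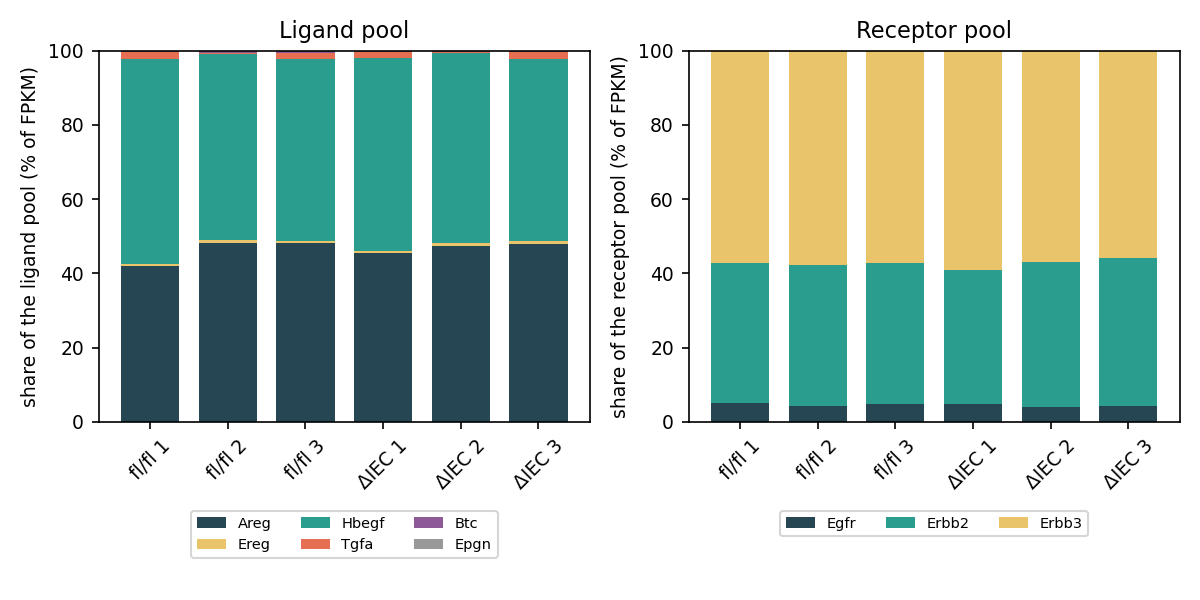
Stacked bars, starting at 0, of the share of each ligand in the summed ligand FPKM and of each receptor in the summed receptor FPKM, in percent, 1 bar per sample (fl/fl for Zfp90fl/fl and ΔIEC for Zfp90deltaIEC). *Areg* and *Hbegf* fill nearly the whole ligand bar, and *Erbb3* takes 55.8% to 59.1% of the receptor bar, in both genotypes.

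*Errfi1* (chr4:150853919-150868892), the feedback inhibitor, was abundant. It was measured at 77.2, 96.4 and 95.3 FPKM in replicates 1, 2 and 3 of Zfp90fl/fl mice, against 82.3, 82.0 and 87.7 FPKM in those of Zfp90deltaIEC mice. All Zfp90deltaIEC values lay between Zfp90fl/fl replicate 1 and the other Zfp90fl/fl samples. The means were 89.6 ± 10.8 and 84.0 ± 3.22 FPKM (SD, n = 3 each), with a log2 fold change of -0.09 (95% interval -0.31 to 0.14, adjusted p = 0.719, limma). It was -0.19 without Zfp90fl/fl replicate 1 (adjusted p = 0.378, limma), and -0.03 and -0.04 without Zfp90fl/fl replicates 2 and 3 (adjusted p = 0.935 and 0.911, limma). Zfp90fl/fl replicate 1 was also the lowest sample for *Areg* and *Btc*.

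Within each sample *Errfi1* was 17.4 to 24.4 times as high as *Egfr* in FPKM, with means of 21.2 ± 3.31 in Zfp90fl/fl and 22 ± 2.69 in Zfp90deltaIEC mice (SD, n = 3 each). *Hbegf* was 37.3 to 43.3 times as high as *Egfr*, with means of 38.3 ± 1.08 and 41.7 ± 2.21.

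**Figure D4:**
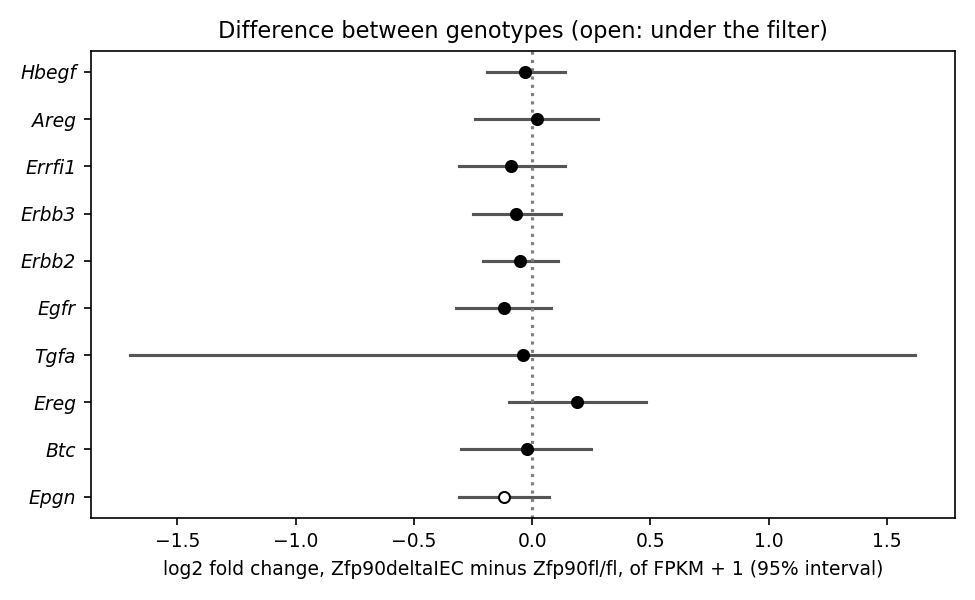
Log2 fold change of FPKM + 1 (Zfp90deltaIEC minus Zfp90fl/fl) of the 10 members with 95% intervals from limma, *Epgn* from the fit without a filter. All 10 intervals include 0, and that of *Tgfa*, -1.70 to 1.62, is the widest.

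The other genes of the pathway were described through lists of 76 genes, of which 67 reached the filter and 0 were called by limma after adjustment. An unadjusted p under 0.05 was found for 8 of them (7 lower and 1 higher in Zfp90deltaIEC mice, or 11.9%, beside 14.6% of all genes tested). Samples of the genotypes did not overlap for 15 (22.4%, beside 21.3%). Their median log2 fold change was -0.04, with 45 of 67 below 0, and 57.2% of all genes tested were below 0. Under median ratio scaling 38 of the 67 were below 0, with a median of -0.02, and 5920 of the 11564 genes tested were below 0. That scaling also turned the split of the genes with an unadjusted p under 0.05, from 935 lower and 759 higher to 706 lower and 923 higher over all genes tested, and it left 5 lower and 2 higher among the pathway genes.

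**Figure D5:**
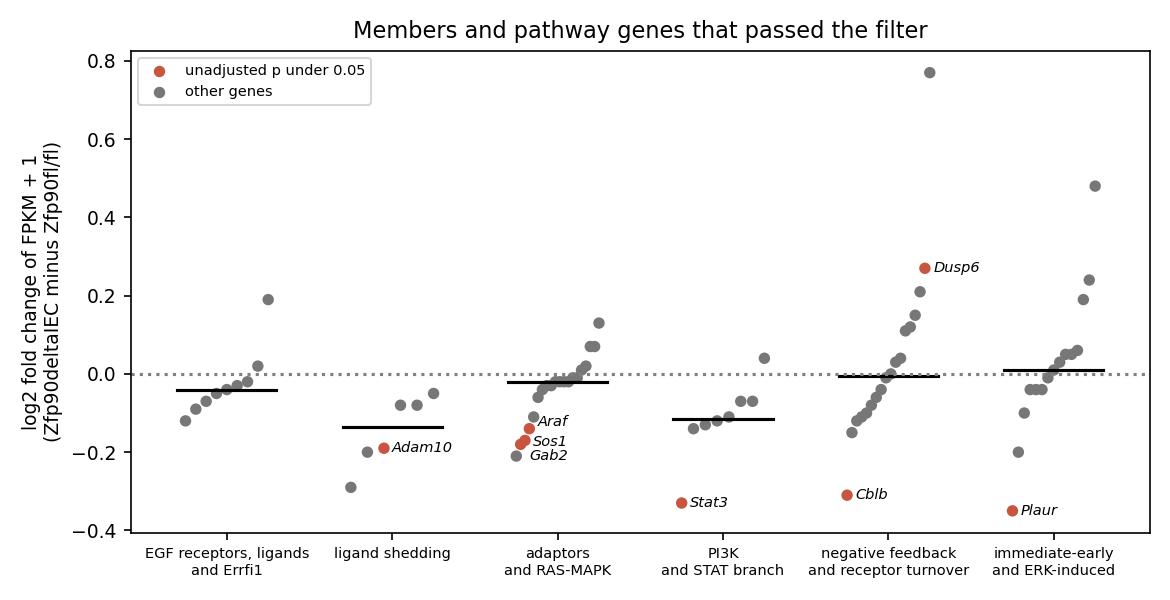
Log2 fold change of FPKM + 1 (Zfp90deltaIEC minus Zfp90fl/fl) of the 9 tested members and the 67 tested pathway genes, 1 point per gene, with the median of each list as a line. The genes with an unadjusted p under 0.05 are *Adam10*, *Araf*, *Sos1*, *Gab2*, *Stat3*, *Cblb*, *Plaur* and *Dusp6*, none of which was called after adjustment.

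Of the rest of the family, none of the 6 genes reached the filter. *Egf* was measured at 0.35 to 0.625 FPKM and *Nrg4*, a neuregulin that binds ERBB4, at 0.203 to 0.26 FPKM. In the fit without a filter their log2 fold changes were 0.11 (adjusted p = 0.692, limma) and 0.03 (adjusted p = 0.751, limma). *Nrg3* was listed at 0 in all 6 samples, *Erbb4* and *Nrg2* were listed at 0 in 5 of 6, and *Nrg1*, a ligand of ERBB3, did not exceed 0.00354 FPKM.

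For ligand shedding, 6 of 8 genes were tested, and all 6 had a log2 fold change below 0, with a median of -0.13. *Adam10*, a metalloprotease that cuts EGF and betacellulin precursors, was measured at 23.0, 24.3 and 22.1 FPKM in the Zfp90fl/fl samples against 20.8, 20.7 and 19.1 FPKM in the Zfp90deltaIEC samples. These did not overlap, and the log2 fold change was -0.19 (unadjusted p = 0.0202 and adjusted p = 0.253, limma). *Rhbdf1*, which encodes an inactive rhomboid protein that helps ADAM17 mature, had a log2 fold change of -0.20 (adjusted p = 0.442, limma). *Adam17* itself was at 5.14 to 6.26 FPKM, with overlap.

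Of the adaptors and the RAS-MAPK cascade, 20 of 20 genes were tested, 15 below and 5 above 0, with a median of -0.02. The split was 11 below and 9 above 0 under median ratio scaling. *Sos1*, the exchange factor that loads RAS with GTP, was measured at 5.83, 5.29 and 5.23 FPKM against 4.85, 4.62 and 4.75 FPKM, without overlap (log2 fold change -0.17, adjusted p = 0.291, limma). *Araf*, a RAF kinase, had a log2 fold change of -0.14 (adjusted p = 0.309, limma), also without overlap.

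In the PI3K and STAT branch, 7 of 8 genes were below 0, with a median of -0.11, and 4 of 8 had samples that did not overlap, beside 21.3% of all genes tested. *Stat3*, a transcription factor activated by cytokine receptors and EGFR, was measured at 10.6, 11.1 and 13.1 FPKM in the Zfp90fl/fl samples against 8.25, 8.81 and 9.99 FPKM in the Zfp90deltaIEC samples. All Zfp90deltaIEC samples lay below all Zfp90fl/fl samples, with a log2 fold change of -0.33 (SE 0.0978, adjusted p = 0.205, limma). *Pik3r1*, a regulatory subunit of PI3K, had a log2 fold change of -0.14 (adjusted p = 0.367, limma).

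Of negative feedback and receptor turnover genes, 18 of 18 were tested, 10 below and 8 above 0, and the split turned to 8 below and 10 above 0 under quantile normalization and under median ratio scaling. *Cblb*, a ubiquitin ligase that marks activated receptors for degradation, was measured at 4.86, 5.0 and 4.95 FPKM against 4.18, 3.4 and 3.81 FPKM. Its log2 fold change was -0.31 (unadjusted p = 0.00404 and adjusted p = 0.134, limma), the smallest unadjusted p of the 67 pathway genes. *Dusp6*, a phosphatase of ERK that ERK signalling induces, was measured at 25, 21.4 and 23.6 FPKM against 31.1, 25.3 and 28.8 FPKM. The Zfp90deltaIEC samples were the higher ones without overlap, with a log2 fold change of 0.27 (unadjusted p = 0.0219 and adjusted p = 0.26, limma). *Spry1*, an inhibitor of RAS signalling named after its values were seen, was at 1.26, 9.58 and 10.1 FPKM against 12.5, 7.27 and 10.7 FPKM. Zfp90fl/fl replicate 1 stood far below the other 5 samples, and the log2 fold change of 0.77 was not called (adjusted p = 0.604, limma).

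Of immediate-early and ERK-induced genes, 15 of 16 were tested, 7 below and 8 above 0, with a median of 0.01. *Plaur*, the urokinase receptor, was measured at 6.87, 8.84 and 7.8 FPKM against 5.75, 6.08 and 5.96 FPKM, without overlap (log2 fold change -0.35, adjusted p = 0.147, limma). *Etv5*, an ETS transcription factor, was measured at 5.74, 5.56 and 5.19 FPKM against 11.3, 8.22 and 5.57 FPKM. Zfp90deltaIEC replicate 3 fell inside the Zfp90fl/fl range, and the log2 fold change was 0.48 (adjusted p = 0.347, limma). Some abundant early genes were named after their values were seen. *Fos* (742.8 to 812.7 FPKM) and *Egr1* (185.4 to 232.3 FPKM) overlapped between the genotypes, and *Jun*, at 423.0 to 433.6 against 441.1 to 446.7 FPKM, did not (log2 fold change 0.05, adjusted p = 0.689, limma).

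Leukocyte markers and some mast cell markers were lower in the Zfp90deltaIEC samples. The summed level of 13 leukocyte markers was 5.0 to 6.96 FPKM in Zfp90fl/fl and 1.21 to 1.96 FPKM in Zfp90deltaIEC samples. Of the 13, 13 were lower on average, 10 of them without overlap. *S100a8* and *S100a9* were listed at 0 in every Zfp90deltaIEC sample. All 13 lay under the filter, and 21.3% of the genes that reached it had samples that did not overlap. Of the 13 leukocyte markers, *Itgam* was called in the fit without a filter (log2 fold change -0.76, adjusted p = 0.0199, limma). The sum of 7 mast cell markers was 18 to 26.1 against 5.57 to 10.0 FPKM, with 6 of 7 lower, 3 of them without overlap. *Mcpt1* (8.46 to 13.7 against 0.609 to 1.05 FPKM) and *Mcpt2* (4.08 to 6.31 against 0.215 to 0.33 FPKM) were called (adjusted p = 0.00271 each, limma). *Fcer1a* was listed at 0 in every Zfp90deltaIEC sample. *Kit*, *Cpa3*, *Cma1* and *Tpsb2* overlapped, and *Kit* was higher on average in Zfp90deltaIEC mice (4.84 against 5.54 FPKM). The sum of 12 epithelial markers was 10486 to 12897 against 13356 to 17151 FPKM, with 7 of 12 higher and 5 lower on average. The largest of them, *Car1*, was at 4033 to 5628 against 6349 to 10059 FPKM, and without it, a choice made after seeing the values, the sums of the other 11 overlapped (6453 to 7269 against 7008 to 7092 FPKM). The sums of 9 fibroblast and muscle markers (0.314 to 0.538 against 0.22 to 0.834 FPKM), 4 endothelial markers (0.197 to 0.313 against 0.429 to 0.489 FPKM) and 6 markers of type 2 innate and regulatory T lymphocytes (2.51 to 3.22 against 2.15 to 2.68 FPKM, *Klrg1* at 0 in all 6 samples) were low throughout. The endothelial sums did not overlap, through *Pecam1* (mean 0.257 against 0.458 FPKM), with 2 of 4 markers higher and 2 lower on average. *Ikzf2*, at 1.93 to 2.61 FPKM with overlap, made up most of the lymphocyte sum. Of those 6 markers, 4 were lower and 1 higher on average, and *Il7r* and *Gata3* were lower without overlap. The part of these cells in the levels of *Stat3*, *Plaur* and the EGF family was not tested.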

How the data were processed

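RNA of colon epithelium was sequenced with a strand-specific kit, and the authors deposited values taken here as FPKM, 1 file for each sample. Neither the file headers nor the paper's methods name the unit. FPKM was inferred from the use of Cuffdiff in those methods and from the values. The sources disagree on how the values were made. The methods name TopHat, Cuffdiff and a human genome, and the submitters' processing notes name STAR 2.5, Cuffnorm, DESeq 1.22.1 and mm9. The files hold mouse Ensembl identifiers without coordinates, and 52403 of 52550 matched a symbol in GENCODE M21 (GRCm38), which gave all gene positions.

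FPKM values were analysed as log2(FPKM + 1). Genes reaching 1 FPKM in 3 or more samples entered a fit with limma 3.58.1 (intensity trend in the empirical Bayes step, R 4.3.3) with Benjamini-Hochberg adjustment over all genes tested and a threshold of 0.05, with genotype as the single term. Genes under the filter took their values from a fit without it. The paper's supplement gives n per group of mice for these data, so each sample was taken as 1 mouse. Depth was estimated from the steps of genes with 1 transcript, of whose low values 59.7% to 64.5% lay within 10% of a whole step, so whole reads were not recovered and no count test was run. The test was also tried on simulated normal values, with the mean and within-group SD of each gene taken from these samples. Tables and figures used Python 3.11.15, pandas 2.3.3, numpy 2.4.6, scipy 1.17.1 and matplotlib 3.10.9.

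The members, gene lists and marker lists were chosen with earlier results of these data known. The rule for genes named gave all members, *Zfp90*, the genes past the threshold or else the 2 with the smallest p of each pathway list, and the 5 profiles nearest to the member with the smallest p. Other genes were named after their values were seen. Alternatives were another pseudocount (0.1), no filter or one at 0.1 FPKM, quantile normalization, median ratio scaling, the replicate number as a block, and leaving out each sample. Leaving out both samples numbered 2 was added after seeing *Tgfa*.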

Additional observations from a re-analysis of the deposited data

How the results depend on the processing

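The 0 members and 0 pathway genes called by limma stayed at 0 under all alternatives run, and the members' adjusted p did not fall below 0.309 in any. An unadjusted p under 0.05 appeared for 1 of 9 members (11.1%, lower) without Zfp90fl/fl replicate 1, beside 11.3% of all genes, and for 1 of 9 (higher) without Zfp90fl/fl replicate 2, beside 11.2%. The number of genes called over the whole table, 23, was 13 with a pseudocount of 0.1, 15 without a filter, 47 with the replicate block and 9 without both samples numbered 2. It ranged from 10 to 21 when each sample was left out, with 10 without Zfp90fl/fl replicate 2. The causes were not tested. The log2 fold changes of 5 members changed sign when samples were left out 1 at a time, over ranges of -0.08 to 0.01 (*Erbb2*), -0.08 to 0.09 (*Areg*), -0.07 to 0.04 (*Hbegf*), -0.66 to 0.63 (*Tgfa*) and -0.13 to 0.07 (*Btc*). Without both samples numbered 2 it became 0.03 for *Erbb3* and *Erbb2*, 0.05 for *Hbegf*, 0.01 for *Tgfa* and 0.07 for *Btc*, and that of *Btc* was 0.0008 under quantile normalization. The result of *Zfp90* kept its direction and its side of the threshold in all alternatives run for it. The difference in the *Areg* share (0.79 percentage points) ranged from -1.32 without Zfp90fl/fl replicate 1, a change of sign, to 1.89 without Zfp90fl/fl replicate 3. The SD of that share was 3.67 percentage points in Zfp90fl/fl and 1.32 in Zfp90deltaIEC mice. Deviations from the group means correlated at 0.194, 0.11 and 0.0782 between samples with the same replicate number. The study methods name no pairing of samples, so the samples were taken to share only a number and the main fit had no block. Each sample still correlated best with its own number, a hint from the data and not the design. A pairing was thus not excluded. The replicate block called 47 genes in all and 0 members. With 3 samples a group, small changes in the abundant members lie inside the intervals given, and FPKM without fragment counts leaves the counting error of *Epgn*, *Btc* and *Ereg* to an estimate.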
